A study of Drosophila melanogaster with 40 samples.

Results

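Pool 2 of the puromycin gradients was compared with pool 2 of the cycloheximide gradients, transcript by transcript, in smaug-mutant Drosophila melanogaster embryos. The members were the 4 pool 2 arrays of these drug gradients, taken by their labels, out of 40 arrays in the series: 2 from puromycin gradients and 2 from cycloheximide gradients, 1 of each drug from each of 2 lysates. Both drug groups came from embryos laid by mothers homozygous for the smaug1 allele and collected between 0 and 2 h after egg laying, so the puromycin group and the cycloheximide group carried the same mutation and no wild-type lysate was divided between the drugs. A lysate was divided and received puromycin in 1 portion and cycloheximide in the other, and both portions were then held on ice and warmed before loading. Each gradient was divided from top to bottom into 4 pools of 4, 2, 3 and 3 mL, with the pellet in pool 4. The series also holds 3 gradients of smaug-mutant embryos and 3 of wild-type embryos, called standard gradients here. These were lysed in a different buffer that itself contained cycloheximide, and their lysates were not divided between drugs.

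In a sucrose gradient an mRNA moves further down the more ribosomes it carries, so free mRNA collects near the top and mRNA on large polysomes near the bottom. Puromycin mimics a charged tRNA, enters the growing peptide and ends its synthesis early, which frees ribosomes from the mRNA. Cycloheximide stalls ribosomes during elongation and holds them on the mRNA. Pool 2 lies between the free mRNA of pool 1 and the polysomes of pools 3 and 4 and holds a mixture of free and ribosome-bound mRNA. Smaug, an RNA-binding protein supplied by the mother, represses translation and promotes decay of many maternal mRNAs in the early embryo.

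Each array gave 1 log2 level for each of 6524 transcripts. Spike-in RNA, of which each pool had received the same quantity, had set a common scale for the levels. The median log2 level in pool 2 was 12.14 and 13.21 on the puromycin arrays of lysates 1 and 2, against 11.80 and 11.90 on the cycloheximide arrays. Both puromycin medians lay above both cycloheximide medians, with the puromycin array of lysate 2 furthest above. The means were 12.67 ± 0.75 for puromycin and 11.85 ± 0.065 for cycloheximide (SD, n = 2 each), a difference of 0.82, and the difference was 0.34 in lysate 1 and 1.31 in lysate 2. Dyes were exchanged between the lysates, and the difference was 0.25 between the Cy3 arrays and 1.40 between the Cy5 arrays. An exact two-sided permutation test of the 4 medians, not paired by lysate, gave p = 0.333. This is the smallest value that 2 arrays against 2 allow in an unpaired test. The standard deviation over transcripts was 1.30 and 1.50 on the puromycin arrays and 1.17 and 1.18 on the cycloheximide arrays, and over all 40 arrays the medians ran from 9.98 to 14.1.

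**Figure D1:**
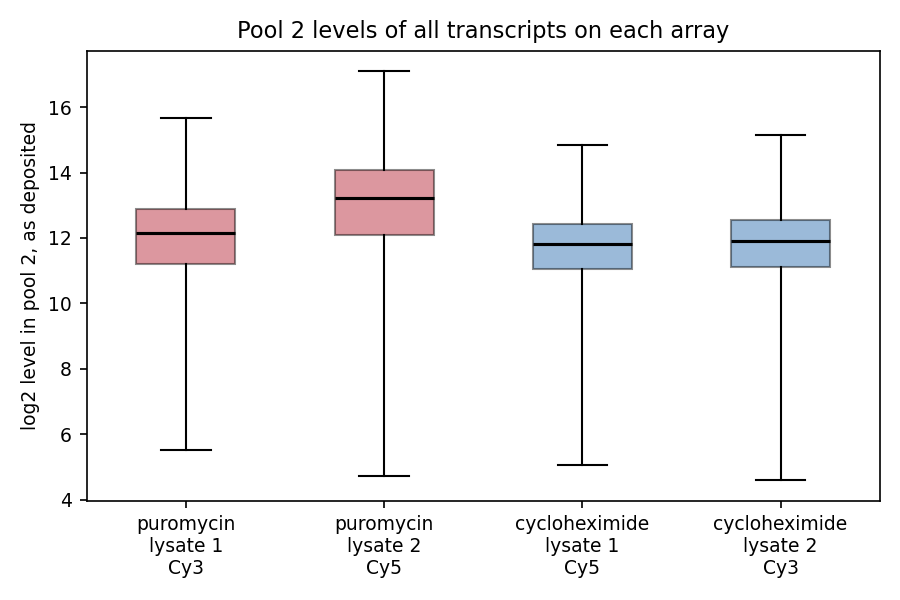
Log2 level in pool 2 as deposited, for 6524 transcripts on each of the 4 arrays. Boxes span the quartiles with the median as a line, and whiskers reach the lowest and highest transcript. The puromycin array of lysate 2 has the highest median (13.21), and the cycloheximide arrays have similar medians (11.80 and 11.90).

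The identity of the transcripts that were abundant in pool 2 differed more between drugs than between lysates. Across the 6524 transcripts, levels correlated with Pearson's r = 0.96 between the 2 puromycin arrays and 0.95 between the 2 cycloheximide arrays, but with r = 0.67 between drugs in lysate 1 and 0.53 in lysate 2. Of the 100 most abundant transcripts on each array, 72 were shared by the puromycin arrays and 70 by the cycloheximide arrays. Only 5 were shared by the 2 drugs in lysate 1, and 2 in lysate 2. These correlations and counts are across transcripts, which share probes, arrays and lysates and are not independent replicates.

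Taken as deposited, most transcripts that changed in pool 2 were higher in puromycin. With limma (drug and lysate as terms, Benjamini-Hochberg adjusted p under 0.05 over all transcripts), 2153 of 6524 transcripts passed (33.0%), of which 1819 were higher in puromycin (27.9% of all transcripts) and 334 lower (5.12%). The difference of the array medians varied between lysates by 0.97, and limma drew the spread of every transcript to 1 common value in this fit, with a standard error of 0.55. Both puromycin levels lay above both cycloheximide levels for 3909 transcripts (59.9%) and below both for 756 (11.6%). The number called depended on the fit and on single arrays, and was 1037 with a trended and robust fit. Here and below, fits with 1 array left out held drug as the only term. Their spread came only from the drug group that kept both arrays. The median change was 1.36 without puromycin replicate 1 and 0.31 without puromycin replicate 2. It was 0.78 without cycloheximide replicate 1 and 0.86 without cycloheximide replicate 2.

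After the median of each array was subtracted, which by construction puts about as many transcripts above 0 as below it, calls were made in both directions. Of 6524 transcripts, 1469 were higher in puromycin (22.5%) and 1439 were lower (22.1%), together 44.6%. The calls were 50.5% higher after centring and 84.5% higher as deposited. All 1469 transcripts called higher after centring were also called higher as deposited, and all 334 called lower as deposited were also called lower after centring. Centring lowered every change by the same 0.82. This overlap therefore follows from the shift and the spread of each fit and is not separate support. A further 1105 transcripts were called lower after centring only. Of the 1439 called lower after centring, 192 had a higher mean level in puromycin as deposited, so for these the direction depended on the scaling. Unless stated otherwise, a change below is the log2 level in puromycin minus that in cycloheximide after centring, and a transcript is called higher or lower in that fit. The median change over all transcripts was 0.83 as deposited.

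Changes were large against the difference between lysates. The change had an SD over transcripts of 1.15, whereas the deviation of each lysate from the mean of the lysates had an SD of 0.29, and the median standard error was 0.27. The middle 50% of transcripts lay between -0.56 and 0.59, and the extremes were -4.50 and 3.98. Among called transcripts the median change was 1.25 for those higher and -1.40 for those lower. A change over 1 was found for 1015 of the transcripts called higher, over 2 for 235 and over 3 for 24. On the lower side, 1063 transcripts had a change below -1, 405 below -2 and 111 below -3. These counts hold for centred arrays, and as deposited the calls lower in puromycin were the fewer (334 against 1819 higher). The changes of lysates 1 and 2 correlated across transcripts with r = 0.91. Of the 1469 transcripts called higher, 1468 were higher in both lysates and all were higher within both dyes. Of the 1439 called lower, 1438 were lower in both lysates and 1436 within both dyes. The calls were made from these same arrays, so this agreement follows largely from the calls and is not separate support. Over all transcripts, called or not, 2656 were higher in both lysates, 2653 were lower in both and 1215 were split between them. After centring, both puromycin levels lay above both cycloheximide levels for 2425 transcripts (37.2%) and below both for 2364 (36.2%). Sharing 1 estimate of the spread over all 16 drug arrays reduced the calls to 1934, with 893 higher and 1041 lower, all of which were among those above.

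**Figure D2:**
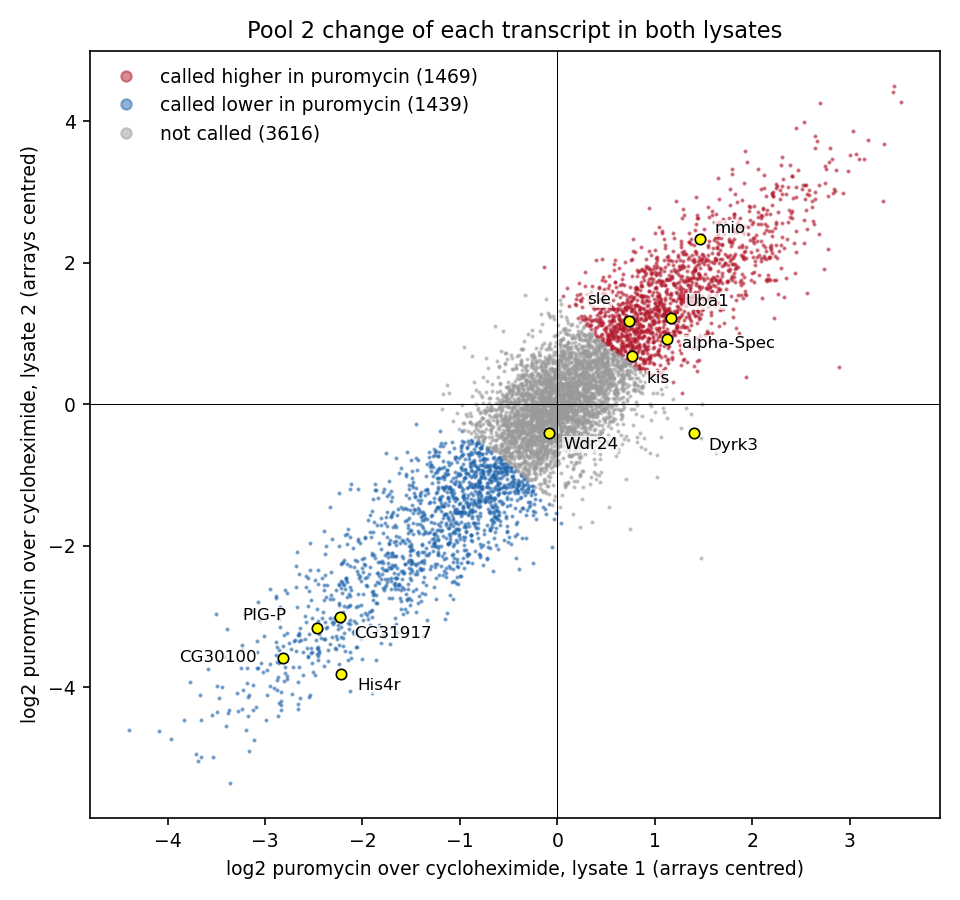
Change in pool 2 of each of 6524 transcripts in lysate 1 (x axis) and lysate 2 (y axis), as log2 puromycin over cycloheximide after centring each array. Red points are called higher (1469), blue points lower (1439) and grey points not called (3616), and yellow circles mark named genes. The points follow the diagonal (r = 0.91), and Dyrk3 lies off it.

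The transcripts with the largest changes in each direction had no gene name in the table used here. FBtr0080833 had log2 levels of 14.64 and 16.23 in puromycin, against 10.86 and 10.41 in cycloheximide (change 3.98 ± 0.29, SE, limma adjusted p = 3.36e-10). FBtr0076976 had levels of 13.56 and 14.81 in puromycin, against 9.77 and 9.09 in cycloheximide (change 3.93 ± 0.29, SE). Both were far above their cycloheximide levels in both lysates. Pool 2 held 34.0% and 38.7% of the signal of FBtr0080833 and FBtr0076976 in puromycin gradients, and 2.91% and 2.39% in cycloheximide gradients, where pool 4 held 66.9% and 60.7%. On the lower side, FBtr0084526 had levels of 10.21 and 11.04 in puromycin, against 14.27 and 14.33 in cycloheximide (change -4.50 ± 0.27, SE, limma adjusted p = 8.01e-11). FBtr0073775 had levels of 9.84 and 9.79 in puromycin, against 13.19 and 13.52 in cycloheximide (change -4.37 ± 0.30, SE). Pool 2 held 5.00% and 6.74% of the signal of FBtr0084526 and FBtr0073775 in puromycin gradients, and 52.2% and 45.8% in cycloheximide gradients. These last transcripts were therefore concentrated in pool 2 under cycloheximide and in pool 1 under puromycin, where 81.1% and 79.0% of their signal lay.

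The other pools of the same gradients place pool 2 within the gradient as a whole. Over all transcripts, the median share of the signal of the 4 pools found in pool 2 was 22.7% and 29.9% in puromycin gradients, against 17.3% and 15.7% in cycloheximide gradients. The means were 26.3% ± 5.10 for puromycin and 16.5% ± 1.13 for cycloheximide (SD, n = 2 each). The difference was 9.81 percentage points, with an exact two-sided unpaired permutation test giving p = 0.333, again the smallest possible in that test. Pool 1 was the highest pool for 6065 and 5676 transcripts in puromycin gradients, against 1671 and 3684 in cycloheximide gradients. Pool 2 was the highest pool for 373 and 835 transcripts in puromycin and for 377 and 391 in cycloheximide, so few transcripts peaked in pool 2 under either drug.

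Transcripts called higher and lower in pool 2 came from different places in the gradient. Those called higher had median shares of 52.0%, 34.6%, 10.2% and 3.04% in pools 1 to 4 of puromycin gradients, against 15.9%, 10.0%, 24.6% and 45.6% in cycloheximide gradients (means of 2 gradients). Pool 4 thus had the largest share under cycloheximide, and pools 1 and 2 had the largest shares under puromycin. Those called lower had median shares of 67.7%, 16.8%, 9.39% and 5.85% in puromycin, against 30.3%, 25.1%, 22.7% and 18.5% in cycloheximide. Their signal was spread over the pools under cycloheximide, and pool 1 took the larger share under puromycin. These shares describe groups chosen by their pool 2 levels, and because the shares of a transcript add up over the pools, those of pools 1, 3 and 4 are not independent of that choice either.

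**Figure D3:**
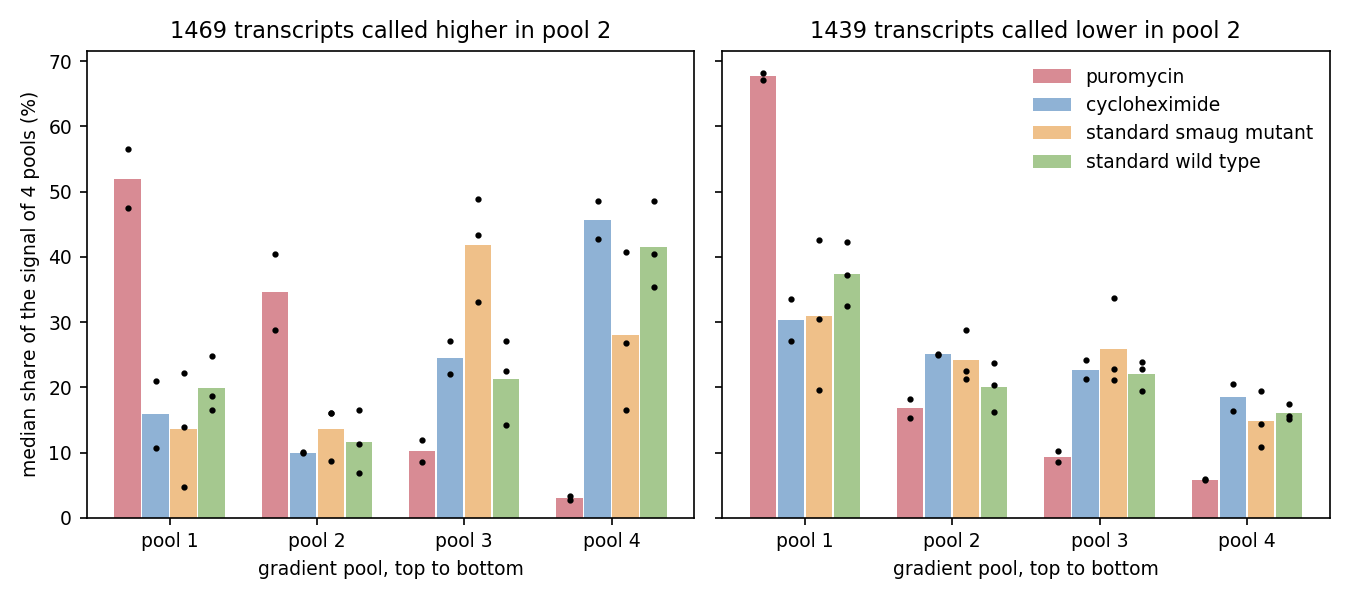
Median share of the signal of 4 pools (percent, y axis) in each pool (x axis), for the 1469 transcripts called higher (left panel) and the 1439 called lower (right panel). Bars are means over gradients and dots are single gradients (2 puromycin, 2 cycloheximide, 3 standard smaug-mutant and 3 standard wild-type gradients). Transcripts called higher have 45.6% of their signal in pool 4 under cycloheximide and 3.04% under puromycin.

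Pool by pool, the drug difference as deposited was positive in pools 1 and 2 and negative in pools 3 and 4. The median change over all transcripts was 1.47 in lysate 1 and 1.04 in lysate 2 in pool 1, and 0.34 and 1.31 in pool 2. It was -0.96 and -0.67 in pool 3, and -2.99 and -1.99 in pool 4. Transcripts called lower in pool 2 had median changes of 1.08 and 0.95 in pool 1, -1.37 and -1.23 in pool 3, and -2.06 and -1.46 in pool 4. Transcripts called higher in pool 2 had median changes of 2.42 and 1.89 in pool 1, -1.20 and -0.49 in pool 3, and -4.17 and -2.82 in pool 4. They were further from 0 than those called lower in pools 1 and 4, and closer to 0 in pool 3.

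The ratio of pool 2 to each other pool of the same gradient was tested with 1 value per gradient. The log2 ratio of pool 2 to pool 1 had medians of -1.38 and -0.90 in puromycin, against -0.22 and -1.12 in cycloheximide. The groups overlapped, and 426 transcripts (6.53%) had a lower ratio in puromycin by limma while 0 had a higher one, with 1013 lower and 3 higher at an unadjusted p under 0.05. With the ratios of each gradient centred on their median, 430 were lower and 11 higher, with 1060 lower and 495 higher at an unadjusted p under 0.05. The 426 calls became 0 without puromycin replicate 1 and 0 without puromycin replicate 2 (419 and 519 lower, 1 and 3 higher, at an unadjusted p under 0.05). They became 770 without cycloheximide replicate 1 (734 lower, 36 higher), 2236 without cycloheximide replicate 2 (2174 lower, 62 higher), and 116 with dye in place of lysate as the block.

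Against the polysome pools, the ratio of pool 2 was higher in puromycin for most transcripts. The log2 ratio of pool 2 to pool 3 had medians of 0.77 and 1.60 in puromycin, against -0.48 and -0.25 in cycloheximide. By limma 4560 transcripts had a higher ratio in puromycin (69.9%) and 150 a lower one (2.30%), together 72.2%. The log2 ratio of pool 2 to pool 4 had medians of 2.35 and 2.66 in puromycin, against -0.84 and -0.58 in cycloheximide, and 5703 transcripts were higher (87.4%) and 86 lower (1.32%), together 88.7%. For both ratios the puromycin gradients lay above the cycloheximide gradients. When the ratios of each gradient were centred on their median, the calls became 2051 higher and 1990 lower for pool 3, and 1445 higher and 1161 lower for pool 4. The 4710 calls for pool 3 became 2500 without cycloheximide replicate 1 and 3002 without cycloheximide replicate 2.

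The standard gradients, whose arrays had no part in the calls, also separated these transcripts. When transcripts were divided into 4 equal parts by their log2 ratio of pools 3 and 4 to pool 1 in the standard smaug-mutant gradients, the median change in pool 2 was -0.57, -0.09, 0.20 and 0.64 from the lowest to the highest part. The highest part held 795 transcripts called higher and 108 called lower, and the lowest part 28 called higher and 752 called lower, of 1631 each. The part with most of its signal on polysomes thus held the largest number of transcripts that were higher in pool 2 under puromycin. The rank correlation across transcripts was 0.54 with smaug-mutant and 0.42 with wild-type gradients.

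The ratio of pool 4 to pool 2, a measure chosen after the values were seen, separated the directions further. The change subtracts the pool 2 level under cycloheximide, and this ratio subtracts pool 2 of gradients lysed with cycloheximide. A reproducible pool 2 level would thus relate the ratio to the change whatever puromycin did, so their relation is partly built in. From its lowest to its highest part in standard smaug-mutant gradients, the median change was -0.95, -0.20, 0.18 and 1.08. The numbers called higher were 7, 44, 306 and 1112, and the numbers called lower 936, 364, 124 and 15. In wild-type gradients the same division gave 49, 114, 314 and 992 called higher and 936, 360, 135 and 8 called lower. The rank correlation was 0.77 with smaug-mutant and 0.71 with wild-type gradients, and in single gradients it ran from 0.43 to 0.78 in smaug mutants and from 0.58 to 0.73 in wild type. The gradients of 1 genotype share embryos of 1 kind and all arrays share probes, so these are descriptions across transcripts with no p-value.

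**Figure D4:**
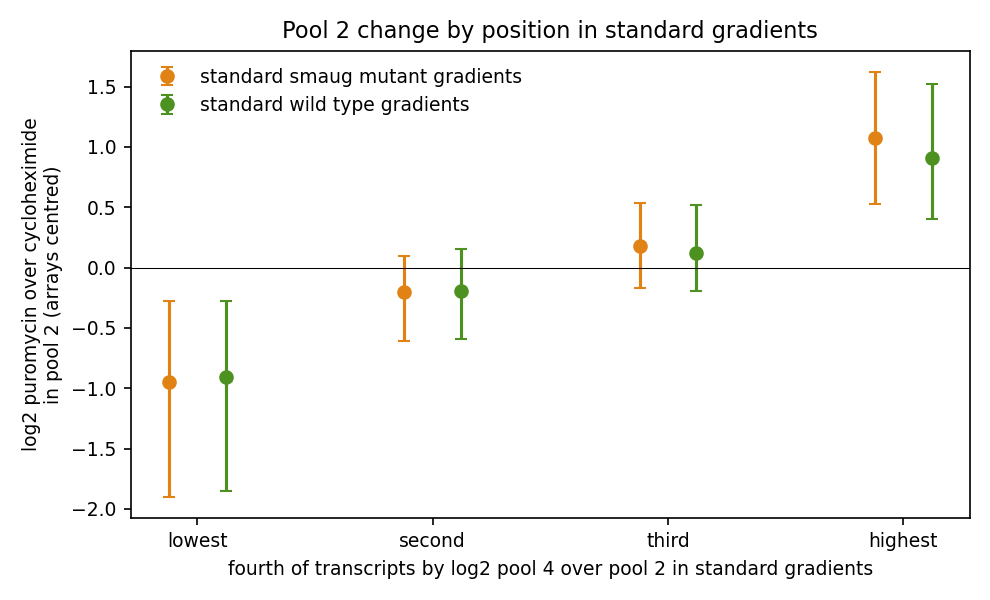
Change in pool 2 (log2 puromycin over cycloheximide after centring, y axis) for 4 equal parts of 1631 transcripts each, ordered by the log2 ratio of pool 4 to pool 2 in standard gradients (x axis). Points are medians and bars span the quartiles. The median runs from -0.95 to 1.08 with smaug-mutant gradients and from -0.91 to 0.91 with wild-type gradients.

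Gene symbols could be given to 35 of the 6524 transcripts (0.536%), and all 35 were examined. For 8 of these the symbol came from the transcript identifier alone. The other 27 were listed under names of reading frames, because their mRNA carries an upstream open reading frame in front of the main one, and for 22 of them the upstream frame is assigned to a second gene. A pool 2 level of such a transcript belongs to the shared mRNA. Of the 8 transcripts, 5 rose (62.5%, against 22.5% of all transcripts), 1 fell and 2 did not pass the test (median change 0.84). Of the 27, 0 rose, 17 fell (63.0%, against 22.1% of all transcripts) and 10 did not pass (median change -1.32, against 0.00 over all transcripts). As deposited, 6 of the 8 passed as higher and 1 as lower, and of the 27, 0 passed as higher and 6 as lower, where 27.9% of all transcripts passed as higher and 5.12% as lower. The smg gene itself and markers of embryonic cell types were not analysed here, since the names cover so few transcripts.

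Among the 8 transcripts named by identifier, mio, Uba1, alpha-Spec, sle and kis rose in puromycin. mio (FBtr0077835), which encodes a subunit of the GATOR2 complex that acts on TORC1 signalling, had log2 levels of 11.29 and 13.23 in puromycin, against 9.49 and 9.59 in cycloheximide. Its change of 1.90 ± 0.29 (SE, limma adjusted p = 5.93e-06) was the largest rise among the named transcripts. Its share of signal in pool 2 was 47.8% in puromycin, against 5.57% in cycloheximide. By mean level over the 4 arrays, mio lay in the lowest 25% of transcripts. Wdr24 (FBtr0085543), which encodes another GATOR2 subunit, had levels of 12.78 and 13.35 in puromycin and 12.53 and 12.44 in cycloheximide, with a change of -0.25 ± 0.27 (SE) that did not pass. The transcripts of these partners in 1 complex thus had different values in pool 2, and the difference between them was not tested. Uba1 (FBtr0088499), the E1 enzyme that activates ubiquitin, had levels of 14.30 and 15.65 in puromycin, against 12.79 and 13.13 in cycloheximide (change 1.19 ± 0.27, SE). Its share in pool 4 was 2.38% in puromycin gradients and 56.4% in cycloheximide gradients.

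alpha-Spec (FBtr0072789), which encodes the α subunit of spectrin in the membrane skeleton, had levels of 12.15 and 13.17 in puromycin, against 10.69 and 10.94 in cycloheximide (change 1.02 ± 0.27, SE). sle (FBtr0082231), a nucleolar protein gene, had levels of 13.58 and 14.69 in puromycin, against 12.50 and 12.20 in cycloheximide (change 0.96 ± 0.27, SE). kis (FBtr0078144), a chromatin remodeller of the CHD family, had levels of 13.42 and 14.53 in puromycin, against 12.32 and 12.54 in cycloheximide (change 0.72 ± 0.27, SE, limma adjusted p = 0.0327). The drug groups did not overlap for any of these genes. The call for kis was lost without puromycin replicate 2 (adjusted p = 0.0708), without cycloheximide replicate 1 (0.159) or without cycloheximide replicate 2 (0.0849), and when arrays were given a common median and SD (0.0759) or quantile normalised (0.0828). The call for sle was lost without cycloheximide replicate 2 (0.0982). In the fit over 16 arrays alpha-Spec (0.346), kis (0.173) and Uba1 (0.132) were not called. All of the risers, mio, Uba1, alpha-Spec, sle and kis, lay in the highest of the 4 parts by pool 4 over pool 2 in standard smaug-mutant gradients. That part held 1112 of all 1469 transcripts called higher.

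Dyrk3 (FBtr0100406), a dual-specificity protein kinase gene, had levels of 9.21 and 9.46 in puromycin, against 7.47 and 8.56 in cycloheximide. It passed as deposited (change 1.32 ± 0.55, SE, limma adjusted p = 0.0499) but not after centring, where its change was 1.40 in lysate 1 and -0.41 in lysate 2. The lysates thus differed in direction once the arrays were centred. It passed when arrays were given a common median and SD (change 1.15, limma adjusted p = 0.0182), with quantile normalisation (0.91, adjusted p = 0.0111) and without cycloheximide replicate 2 (1.00, adjusted p = 0.0228).

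His4r (FBtr0082962) fell the most among the 8 transcripts named by identifier. It encodes histone H4, a very short protein, from a gene outside the replication-dependent histone cluster. Its log2 levels were 7.93 and 8.45 in puromycin, against 9.82 and 10.94 in cycloheximide (change -3.02 ± 0.32, SE, limma adjusted p = 3.38e-08). By mean level over the 4 arrays it lay in the lowest 25% of transcripts. Its share of signal in pool 2 was 17.4% in puromycin, against 62.9% in cycloheximide, and its share in pool 1 was 66.5% in puromycin, against 8.46% in cycloheximide. The standard smaug-mutant gradients also held 52.3% of its signal in pool 2 and 12.5% in pool 4. Its log2 ratio of pool 2 to pool 1 changed by -4.97 (limma adjusted p = 1.00e-05), a call that was not lost when the ratios were centred (adjusted p = 0.00824). Like all calls for this ratio, this one depended on single puromycin arrays.

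The 17 transcripts with an upstream reading frame that fell had changes between -3.20 and -1.11. CG30100, with CG42372 upstream (FBtr0087140), had levels of 8.74 and 9.16 in puromycin, against 11.22 and 11.44 in cycloheximide (change -3.20 ± 0.28, SE, limma adjusted p = 2.98e-09). PIG-P, a subunit of the enzyme that starts GPI-anchor synthesis, with Tcs6 upstream (FBtr0084974), had levels of 11.46 and 12.04 in puromycin, against 13.58 and 13.89 in cycloheximide (change -2.81 ± 0.28, SE). The puromycin levels of both transcripts lay below the cycloheximide levels in each lysate. CG31917, with Tfb5 upstream, a subunit of the transcription factor TFIIH (FBtr0079037), had levels of 10.91 and 11.39 in puromycin, against 12.80 and 13.10 in cycloheximide (change -2.62 ± 0.28, SE). ND-MNLL, a subunit of respiratory complex I, with CG45089 upstream (FBtr0071140), had levels of 8.59 and 9.39 in puromycin, against 10.38 and 10.93 in cycloheximide (change -2.49 ± 0.28, SE). Together with Ppcdc (-2.36), an enzyme of coenzyme A synthesis with CG42496 upstream, and CG9288 (-2.19), with CG42375 upstream, these were the 6 reading-frame transcripts that also passed as lower as deposited.

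The other 11 that fell after centring had changes between -1.85 and -1.11. They were PIG-M (-1.85), the mannosyltransferase of GPI-anchor synthesis, anox (-1.78), an acyl-CoA binding protein gene that shares its mRNA with the mitochondrial RNA-binding protein gene SLIRP1, and lmgB (-1.54), whose partner lmgA encodes a subunit of the anaphase-promoting complex. HDAC3 (-1.50), a histone deacetylase, Mvk (-1.50), the mevalonate kinase of isoprenoid synthesis, and CG7071 (-1.46), which shares its mRNA with the BLOC-1 gene Muted, had similar changes. CG7950 (-1.33), with the RNase P gene Rpp14a, Rad1 (-1.32), a subunit of the 9-1-1 checkpoint clamp, and Mettl5 (-1.25), an rRNA methyltransferase gene, followed, then Tim10 (-1.22), a chaperone of mitochondrial protein import, and vnc (-1.11), an N-terminal acetyltransferase gene. None of the 11 passed as deposited, and for HDAC3, Mvk, Rad1, Mettl5 and vnc the deposited levels of the drug groups overlapped. HDAC3 had levels of 11.68 and 13.01 in puromycin, against 13.04 and 13.01 in cycloheximide, with a difference as deposited of -1.36 in lysate 1 and 0.00 in lysate 2. The call for Tim10 was lost without puromycin replicate 2 (adjusted p = 0.0538), and that for lmgB in the fit over 16 arrays (0.0841).

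The remaining 10 reading-frame transcripts did not pass, with changes between -0.68 and 0.34. These were Tcs1 (-0.68), which shares its mRNA with the RNA polymerase III subunit gene Polr3K, CG5116 (-0.56), Fatp1 (-0.35), a fatty acid transport protein gene, Mocs2B (-0.34), which shares its mRNA with Mocs2A, the other subunit of molybdopterin synthase, CG12016 (-0.23), with Dpm2 of dolichol-phosphate mannose synthesis, and fend (-0.21). The values above 0 were SuUR (0.10), the suppressor of underreplication, CG16974 (0.25), Gint3 (0.26) and CG6191 (0.34). Tcs1 passed as lower without puromycin replicate 1 (limma adjusted p = 0.0335), without cycloheximide replicate 1 (0.0217) and with dye as the block (0.0317), and CG5116 without puromycin replicate 1 (0.0367). CG16974 was 1 of the 5 reading-frame transcripts with no second gene. Its log2 ratio of pool 2 to pool 1 changed by -2.83 (limma adjusted p = 0.0307). This was not particular to CG16974. The ratio also passed as lower for HDAC3 (-4.02), PIG-M (-3.535), PIG-P (-3.36), CG9288 (-3.23), Rad1 (-3.02), CG30100 (-2.89) and CG31917 (-2.81). Calls for this ratio depended on single arrays. By pool 4 over pool 2 in standard smaug-mutant gradients, 17 of the 27 lay in the lowest of the 4 parts and 8 in the next, and all 17 that fell lay in these parts (13 and 4), which held 936 and 364 of all 1439 transcripts called lower.

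**Figure D5:**
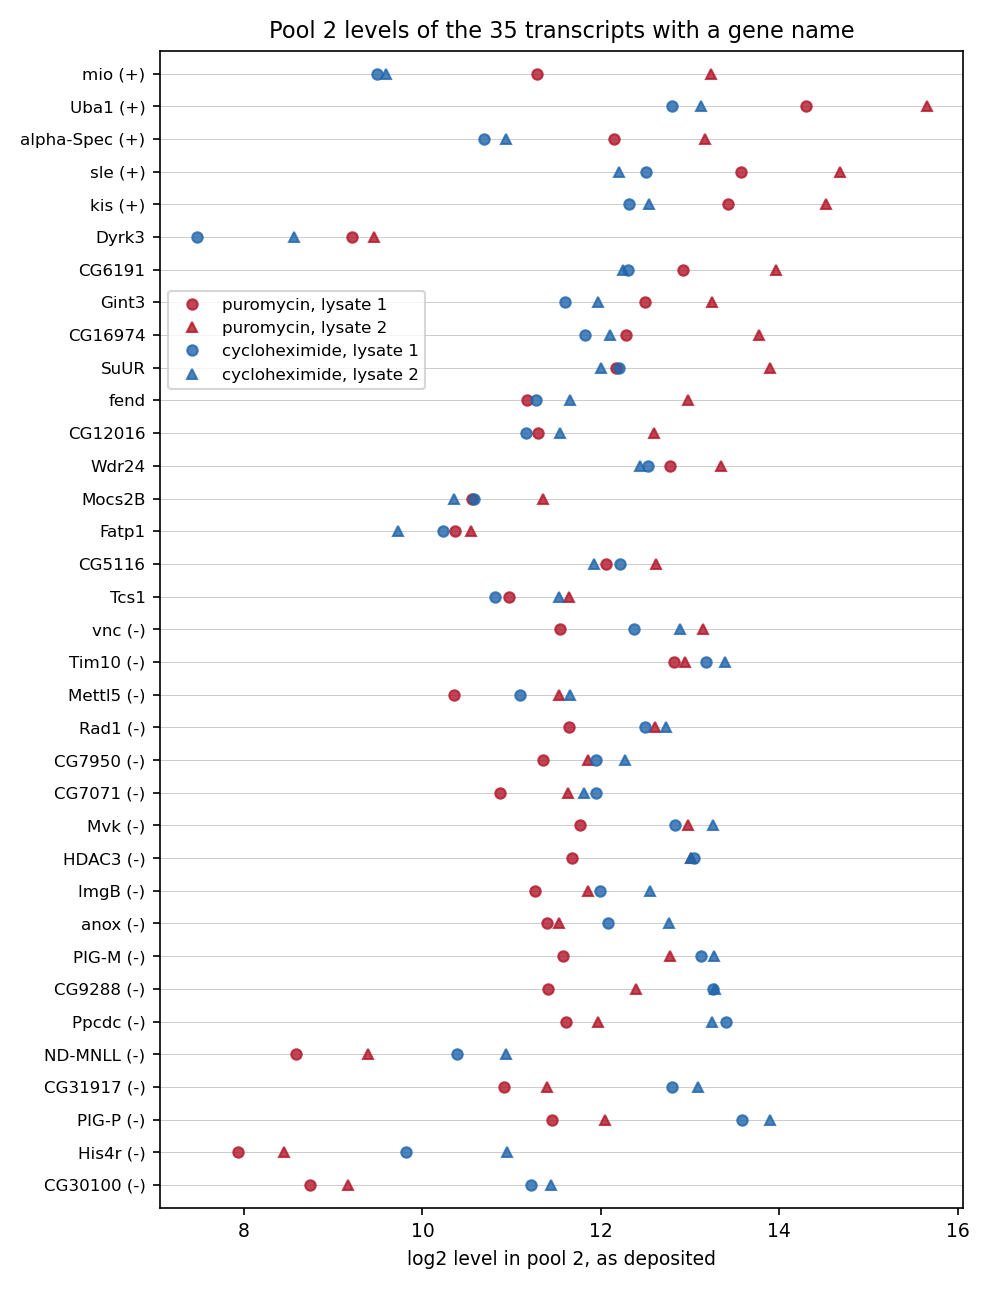
Log2 level in pool 2 as deposited (x axis) of the 35 transcripts with a gene name (y axis, ordered by the change after centring). Red marks are puromycin and blue marks cycloheximide, with circles for lysate 1 and triangles for lysate 2, and (+) and (-) mark transcripts called higher (5) and lower (18) after centring. In mio the red marks lie right of the blue ones, and in CG30100 and His4r they lie left.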

How the data were processed

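RNA from 4 pools of 10 polysome gradients had been labelled with Cy3 or Cy5 and hybridised in 1 colour to NimbleGen custom arrays. The deposited values are log2 levels of single transcripts. Normalisation by the authors was with RMA (version not given in the sources used here) and a linear transformation of each array on spike-in Arabidopsis RNA, so an error in the spike-in of 1 array shifts and stretches all its transcripts. The log base was taken as 2, as RMA gives. The transcripts had been restricted by the authors to expressed genes. The number of arrays limits the precision.

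Levels of puromycin and cycloheximide pool 2 were compared with limma 3.58.1 (lmFit, eBayes) in R 4.3.3 with drug and lysate as terms, as deposited and after subtracting the median of each array. P-values were adjusted by Benjamini-Hochberg over 6524 transcripts with a threshold of 0.05. With 2 lysates per drug, which the labels call biological replicates, limma drew the spread of each transcript towards a value shared over transcripts. P-values therefore measure the spread of a transcript between its own lysates only in part. As deposited the standard error was 0.55 for every transcript. After centring, FBtr0070046 changed by 1.21 in each lysate and still had a standard error of 0.27. Pairing rests on the methods of the study, by which each lysate was split between the drugs, and on the replicate numbers of the labels. Deviations of same-numbered arrays from their group means correlated at -0.05. Log2 ratios of pool 2 to pools 1, 3 and 4 were fitted in the same way with 1 value per gradient. Shares of signal were computed on the linear scale. The scripts were tested on simulated data.

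Symbols came from a RefSeq gene table of assembly Release 6 plus ISO1 MT. Every transcript with a symbol was named, and of the others at most 2 in each direction, those with the largest centred change among transcripts that passed both as deposited and centred. Gene lists were void because under 80% of members had a transcript: mRNAs bound by Smaug (3 of 339), cytosolic ribosomal proteins (0), TRiC/CCT (0), the proteasome regulatory particle (0) and glycolytic enzymes (0). The members and lists were chosen with earlier results of these data known.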

Additional observations from a re-analysis of the deposited data

Results flagged for a closer look

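By the test of the pool ratios with limma, the drug difference in pool 2 differed from that in pools 3 and 4 for most transcripts. It was called different from that in pool 1 for few, in a ratio whose cycloheximide medians varied between lysates (-0.22 and -1.12). Few calls do not show that the drug difference was the same in pools 1 and 2. For pool 2 over pool 1, 426 transcripts (6.53%) differed between puromycin and cycloheximide, all with a lower ratio in puromycin. The medians of the drug groups overlapped for this ratio, and its calls depended on single arrays and numbered 116 with dye as the block. For pool 2 over pool 3, 4710 transcripts (72.2%) differed, and for pool 2 over pool 4, 5789 (88.7%). Most of these had a higher ratio in puromycin. With 2 arrays a group, no search for single outlying arrays was made.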

How the results depend on the processing

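With 2 lysates and array medians that differ between them, counts of calls as deposited and for pool 2 over pool 1 depend strongly on single arrays. Fits with 1 array left out also dropped the lysate term, so their counts reflect that change of terms too. Without the replicate block the calls numbered 1823 as deposited, 2970 after centring, and 466, 4187 and 5862 for pool 2 over pools 1, 3 and 4, so the block moved no count by over 1.5 times. The calls as deposited became 1037 with a trended and robust fit and ran from 129 to 5355 with 1 array left out. After centring they became 1934 in the fit over 16 arrays and ran from 2305 to 3091 with 1 array left out. Rescaling the arrays to 1 median and SD gave 1506 higher and 1370 lower, and quantile normalisation 1589 higher and 1413 lower. Pool 2 over pool 1 gave 116 calls with dye as the block, and 0 to 2236 with 1 array left out. Pool 2 over pool 3 gave 2500 to 5370 with 1 array left out, and pool 2 over pool 4 gave 2606 calls with ratios centred and 4962 to 6061 with 1 array left out. The difference of median levels ran from 0.29 to 1.36, and that of median shares from 6.21 to 13.4 percentage points, with 1 array left out. The rank correlation of the change with position was 0.42 with wild-type gradients, 0.77 for pool 4 over pool 2 and 0.71 for that ratio in wild type, alternatives chosen after seeing the data. Of 420 values of single transcripts under these alternatives, 393 kept their direction and their side of the threshold, and of the 292 for called transcripts 281 did so, 11 fell short of the threshold and 0 changed direction. In transcripts not called, 7 values passed the threshold (Dyrk3, Tcs1 and CG5116) and 9 changed direction. The 420 values include the unnamed transcripts that were picked for the largest changes. Fits that altered only the block, the estimate of the spread or the set of transcripts returned the same change. Direction could therefore not alter in those fits, and these tallies overstate how firm the results are. Fatp1 became 0.029 with arrays rescaled and 0.074 with quantile normalisation, and Mocs2B 0.045 with quantile normalisation. With 1 array left out, Dyrk3 ran from -0.0036 to 1.00, Wdr24 from -0.49 to 0.0005, Fatp1 from -0.79 to 0.093, fend from -0.58 to 0.16 and SuUR from -0.23 to 0.43. The cause of these shifts was not tested.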

Other observations

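The level of a transcript in pool 2 of the standard smaug-mutant gradients had little relation to its change between puromycin and cycloheximide (rank correlation across 6524 transcripts -0.05), as had the ratio of pool 2 to pool 1 there (0.19). Among 4 equal parts by level, 370, 374, 373 and 352 transcripts were called higher from the lowest to the highest part, and 334, 312, 293 and 500 were called lower. Transcripts that fell were thus more numerous in the part with the highest pool 2 level, with a median change of -0.05 there. The change subtracts the pool 2 level under cycloheximide, so such an excess is partly built in. In wild-type gradients the same division by level gave 349, 317, 326 and 447 called lower.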
